A study of Mus musculus with 2 samples.

Results

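The genes described here are 9 members of the JAK-STAT pathway: the transcription factor genes Stat2, Stat3, Stat4, Stat5a, Stat5b and Stat6 and the Janus kinase genes Jak1, Jak2 and Jak3. They were taken by gene symbol from a deposited table of 41214 genes. Each symbol had a single row, and all 9 had at least 100 normalized reads in 1 or both libraries, the floor used below, as did 10443 genes in all. RNA came from splenic germinal centre B cells, sorted as B220+, Fas+, GL7+ and CD138-, of C57BL/6 mice taken 10 days after intravenous injection of 1000000000 sheep erythrocytes. Both groups shared this strain, immunization and sort. They differed in the genotype label, Cbl-/-Cblb-/- for what is called the mutant-labelled library here and wild type for the wild-type-labelled library. Cbl and Cblb encode ubiquitin ligases, and the labels set a genotype lacking both against wild type. The sources used here give neither the age of the mice, nor how many were pooled per library, nor which cells carried the deletions.

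Cytokine receptors of this pathway have no kinase of their own. Binding of the cytokine brings Janus kinases on the receptor tails together, the kinases phosphorylate the tails and the STAT proteins that dock there, and STAT dimers enter the nucleus and bind DNA. In germinal centre B cells the interleukins 4 and 21 from follicular helper T cells are the best known inputs, acting mainly through STAT6 and STAT3. STAT proteins are activated by phosphorylation, which RNA levels do not measure.

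Each group held 1 library, so no difference below has a replicate check and no test was run. The mutant-labelled library had 38223328 reads counted in genes, and the wild-type-labelled library had 26749540. Intervals are 95% intervals for counting error only. Neither targeted gene was lower in the mutant-labelled library: Cbl had 1693 reads there and 118 in the wild-type-labelled library, and Cblb 4061 and 700. After normalization Cbl was 7.01-fold higher (5.81 to 8.52) in the mutant-labelled library and Cblb 2.83-fold higher (2.62 to 3.08). The counts cover whole genes, and which exons the mutant alleles lack is not stated in the sources used here. The name of the deposited table refers to a human liver line, whereas all 41214 identifiers in it belong to mouse genes and the column headers name these 2 samples. Directions are therefore given between labelled libraries and not between genotypes. All 9 germinal centre B cell markers were over the floor in both libraries, with 642 to 53839 normalized reads in the first and 684 to 64213 in the second. Summed normalized reads in the first and second library were 1072 and 1661 for 6 myeloid markers, 50.3 and 642 for 4 erythroid markers and 0.699 and 4.29 for 4 hepatocyte markers, and their part in the results was not tested. Longer genes had higher ratios between the libraries, and a quadratic fit on log2 length accounted for 23.7% of the variation in log2 ratio over genes. Each member is therefore also given as the residual from that fit, called length-adjusted. The length-adjusted log2 ratios of Cbl and Cblb were 2.34 and 0.76.

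Sequence similarity limits how well reads can be assigned to some members, so the sequences are shown first. Stat5b, Stat5a and Stat3 lie side by side on chromosome 11 of GRCm38: Stat5b at chr11:100780731-100850724 on the minus strand, Stat5a at chr11:100859351-100885169 on the plus strand and Stat3 at chr11:100885098-100939540 on the minus strand. The aligned coding sequences of Stat5a and Stat5b were identical at 90.7% of 2343 bases, while the other pairs of STAT genes ranged from 58.2% to 65.5% and the Janus kinase pairs from 59.2% to 61.1%. The longest run that Stat5a and Stat5b shared covered 324 bases, from coding base 571 to 894 in both, and a read lying inside it could have come from either gene. Its opening 150 bases, up to coding base 720, read:
Stat5a and Stat5b: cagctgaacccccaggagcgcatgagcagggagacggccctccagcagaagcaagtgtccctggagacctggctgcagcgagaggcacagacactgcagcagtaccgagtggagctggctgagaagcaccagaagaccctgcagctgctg
Of all 50-base words in the longest coding transcript, 16.4% for Stat5a and 11.8% for Stat5b also occurred in another gene. The 3 prime ends of the coding sequences differ more and separate the genes. In the final 150 alignment columns before the stop codon, bases that differ or have no counterpart in the other gene are in capitals:
Stat5a: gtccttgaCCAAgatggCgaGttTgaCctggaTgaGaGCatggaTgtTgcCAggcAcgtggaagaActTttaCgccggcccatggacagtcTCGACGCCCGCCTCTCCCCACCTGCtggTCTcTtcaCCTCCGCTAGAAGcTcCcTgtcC
Stat5b: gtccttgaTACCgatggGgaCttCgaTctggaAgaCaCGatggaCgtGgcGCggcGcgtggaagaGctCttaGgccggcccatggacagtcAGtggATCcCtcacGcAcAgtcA
The Stat5a end runs from coding base 2230 to 2379 and the Stat5b end from 2245 to 2358. Between Stat5a and Stat3, 72 exon bases at the tail-to-tail boundary overlap on opposite strands, and the sources used here do not say whether reads were counted by strand.

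The other members lie apart. Stat6 (chr10:127642986-127660957) and Stat2 (chr10:128270559-128292849) are both on the plus strand of chromosome 10, and Stat4 (chr1:51987148-52107189) is on the plus strand of chromosome 1. Jak1 is at chr4:101152367-101265282 on the minus strand, Jak2 at chr19:29251828-29313080 on the plus strand and Jak3 at chr8:71676296-71690575 on the plus strand. For Stat2, Stat6, Jak1 and Jak2, 0 of the 50-base words recurred in another gene. For Stat4, 26.7% of exon bases were also covered by the gene model Gm28177, and for Jak3 7.55% were covered by Insl3, so a part of their reads is uncertain in origin.

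Janus kinase transcripts were present in both libraries, and their balance differed between them. Jak1, the kinase shared by most cytokine receptors including those for interleukins 4, 6 and 21 and the interferons, had 18695 reads in the mutant-labelled library and 3194 in the wild-type-labelled library. After normalization these were 13067 and 4570 reads, so Jak1 was 2.86-fold higher (2.75 to 2.97) in the mutant-labelled library, a log2 ratio of 1.52. Jak2, which serves the interferon gamma receptor together with Jak1 and acts on the receptors of erythropoietin and related hormones, had 5273 and 1417 reads. Its normalized values of 3686 and 2027 gave a 1.82-fold higher value (1.71 to 1.93), or 0.86 on the log2 scale. Jak3, which pairs with the common gamma chain of the receptors for interleukins 2, 4, 7, 9, 15 and 21, had 4869 and 2333 reads. After normalization Jak3 stood at 3403 and 3338, a ratio of 1.02 (0.970 to 1.07), so at this depth no difference was detectable. Scaling to total reads moved the log2 ratio of Jak3 from 0.03 to 0.55, and centring on the median of all genes moved it to -0.12, so its sign depends on the scaling.

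The ratio of Jak1 to Jak3 inside a library does not depend on scaling. Per kilobase of deposited length, Jak1 was 2.84 times Jak3 in the mutant-labelled library and 1.01 times Jak3 in the wild-type-labelled library. The ratio of these ratios was 2.80 (2.64 to 2.98). Jak2 was 1.15 times Jak3 in the first library and 0.646 times in the second, a ratio of ratios of 1.78 (1.65 to 1.92). Over these 3 genes, and with no other Janus kinase in the sum, Jak1 took 56.9% of the summed Janus kinase level per kilobase in the mutant-labelled library and 38.1% in the wild-type-labelled library, Jak2 23.1% and 24.3%, and Jak3 20.02% and 37.6%. Jak1 and Jak3 had nearly equal shares in the wild-type-labelled library, where their counting intervals overlapped, and unequal shares in the other. Their deposited lengths of 7227 and 5352 bases differ, and the length-adjusted log2 ratios were 0.60 for Jak1, 0.41 for Jak2 and -0.50 for Jak3.

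**Figure D1:**
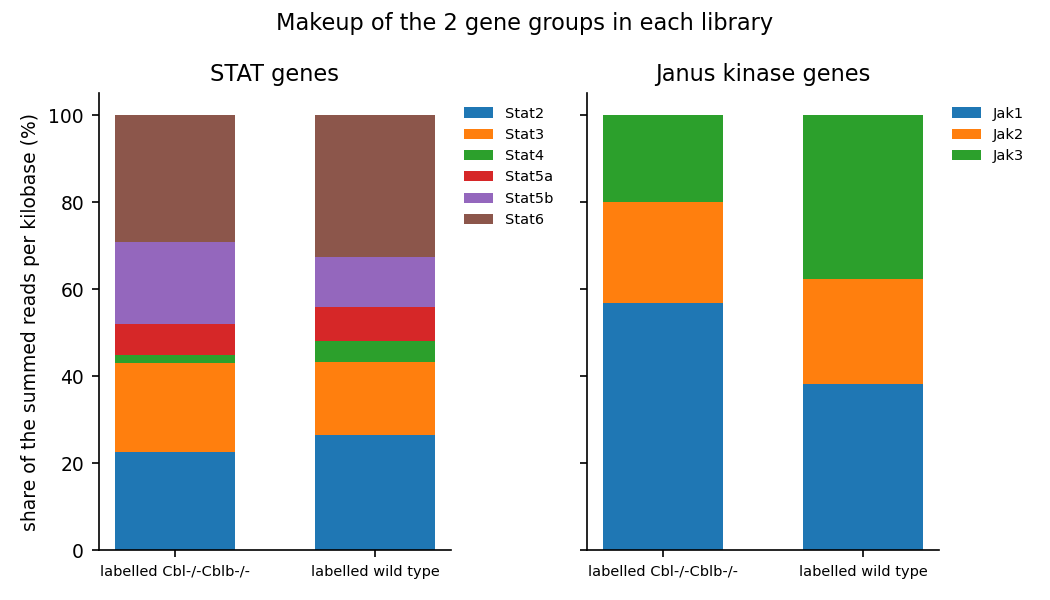
Stacked bars give the share of each gene (%) in the summed normalized reads per kilobase of the 6 STAT genes (left) and the 3 Janus kinase genes (right), 1 bar per library. Jak3 takes 20.02% of the Janus kinase bar in the mutant-labelled library and 37.6% in the wild-type-labelled library, while Stat5b takes 18.9% and 11.6% of the STAT bars.

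The paralogs Stat5a and Stat5b, whose proteins carry signals of the interleukin 2 and 7 receptors in lymphocytes, differed in their ratios. Stat5b had 5202 reads in the mutant-labelled library and 834 in the wild-type-labelled library, or 3636 and 1193 after normalization. It was 3.05-fold higher (2.83 to 3.28) in the mutant-labelled library, and its log2 ratio of 1.61 was the highest of the 9 genes. Stat5a had 2530 and 723 reads, or 1768 and 1034 normalized reads, a 1.71-fold higher value (1.57 to 1.86) and a log2 ratio of 0.77. Per kilobase of deposited length, Stat5b was 2.65 times Stat5a in the mutant-labelled library and 1.49 times in the wild-type-labelled library. The ratio of ratios of Stat5b and Stat5a was 1.78 (1.60 to 1.99). Because of the shared sequence printed above, the reads of both were also summed, which gave 5404 and 2228 normalized reads and a 2.43-fold higher value (2.30 to 2.56), a log2 ratio of 1.28. Length adjustment left Stat5b at 1.04 and put Stat5a at -0.13.

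Stat3, the factor through which interleukins 6, 10 and 21 mainly act, had 9626 and 2082 reads in the mutant-labelled and wild-type-labelled libraries. Its normalized values were 6728 and 2979, a 2.26-fold higher value (2.15 to 2.37) in the mutant-labelled library and a log2 ratio of 1.18. Stat3 is also the longest member, with 9527 bases. The fit on length gave 1.31 at that length, so its length-adjusted value was -0.13 and the direction turned.

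Stat6, the main transducer of interleukin 4, had 6372 and 1863 reads, which were 4454 and 2665 after normalization. It was 1.67-fold higher (1.59 to 1.76) in the mutant-labelled library, with a log2 ratio of 0.74. Stat2, which joins IRF9 in the complex that answers type I interferon, had 4936 and 1510 reads, or 3450 and 2160 after normalization. It was 1.60-fold higher (1.51 to 1.69), with a log2 ratio of 0.68. The ratio of Stat6 to Stat2 per kilobase was 1.29 in the mutant-labelled library and 1.23 in the wild-type-labelled library, and the interval of the ratio of ratios (0.968 to 1.13) included 1. These genes have nearly the same deposited length, 4402 and 4397 bases, and were at 0.45 and 0.38 after length adjustment.

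Stat4, which transmits interleukin 12 signals in T and natural killer cells, was the least abundant member and had a lower value in the mutant-labelled library. It had 346 and 245 reads, or 242 and 351 after normalization, 1.45-fold lower (1.23 to 1.71) in the mutant-labelled library. Its log2 ratio was -0.53, -0.68 after length adjustment and -0.02 when scaled to total reads, so under that scaling its levels in the libraries were nearly equal. In bulk RNA, fewer cells of a type and less RNA per cell cannot be told apart. Of 8 T cell markers, Cd3e had 5 reads in the mutant-labelled library and 0 in the wild-type-labelled library, Cd3g 4 and 11, Cd3d 2 and 15, Cd4 12 and 2, Cd8a 5 and 7, Cd28 61 and 3 and Icos 4 and 0. Only Lck, a kinase gene, was over the floor among the 8, with 4306 and 5530 of the list's summed 4371 and 5584 normalized reads. The 6 natural killer cell markers summed to 138 and 88.7 normalized reads, with single genes at 12.6 to 39.8 in the first library and 1.43 to 31.5 in the second. The part of such cells in the Stat4 values was not tested.

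The order of the 6 STAT genes by level per kilobase of deposited length was the same in both libraries: Stat6, Stat2, Stat3, Stat5b, Stat5a, Stat4. For some members that length exceeds the longest coding transcript, as for Stat3 (9527 against 6042 bases), Stat5a (7133 against 3888) and Stat5b (5539 against 5213). Orders, shares and level ratios between genes therefore hold for deposited length only, whereas a ratio of ratios does not depend on length. In the mutant-labelled library the STAT levels were 1012 normalized reads per kilobase for Stat6, 785 for Stat2, 706 for Stat3, 656 for Stat5b, 248 for Stat5a and 62.5 for Stat4. In the wild-type-labelled library they were 605 for Stat6, 491 for Stat2, 313 for Stat3, 215 for Stat5b, 145 for Stat5a and 90.5 for Stat4. The distance from the highest to the lowest STAT gene was 16.2-fold in the mutant-labelled library and 6.69-fold in the wild-type-labelled library. Among the Janus kinases the levels per kilobase were 1808 for Jak1, 733 for Jak2 and 636 for Jak3 in the first library, and 632, 403 and 624 in the second. Jak1 exceeded 91.1% of all genes over the floor by level per kilobase in the mutant-labelled library and 69.8% in the wild-type-labelled library, whereas Stat4 exceeded 12.6% and 26.7%.

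Across all 9 genes some neighbours in the order of levels could not be separated by counting error. These were Jak2 and Stat3, and Stat5b and Jak3, in the mutant-labelled library, and Jak1 and Jak3, and Jak3 and Stat6, in the wild-type-labelled library. Of the 36 pairs of members, 5 changed their order between the libraries, and Jak3 was in all 5: it was above Stat6, Stat2, Jak2, Stat3 and Stat5b in the wild-type-labelled library and below them in the mutant-labelled library. The ratio of ratios was at least 2-fold for 10 pairs and under 1.5-fold for 14, and its interval included 1 for 5. Among all pairs of the 4195 genes of 3872 to 9527 bases, 53.7% had a ratio of ratios of at least 2-fold, 28.3% one under 1.5-fold and 18.5% a changed order, against 27.8%, 38.9% and 13.9% of the pairs of members, so differences of this size are not particular to these genes.

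**Figure D2:**
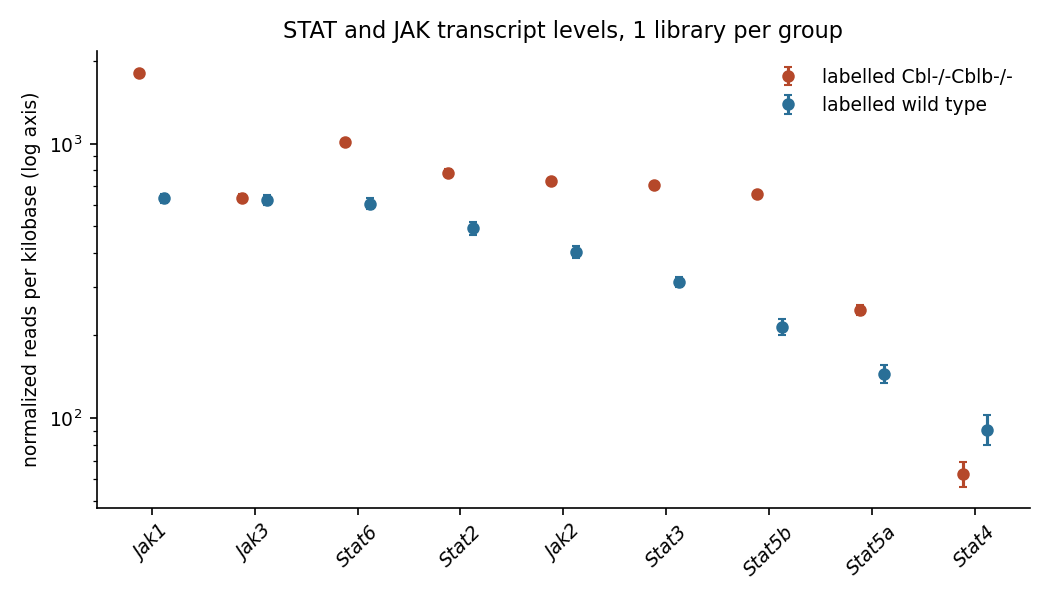
Normalized reads per kilobase of deposited length (log axis) for each of the 9 genes in the 2 libraries, ordered by the wild-type-labelled library, with bars for the 95% counting interval. Jak1, Jak3 and Stat6 lie together between 605 and 632 in the wild-type-labelled library, and in the mutant-labelled library Jak1 stands at 1808, Stat6 at 1012 and Jak3 at 636.

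The ratios of the members lay near those of other genes of their length. Of the 9 members, 3 (Stat5b, Jak1 and Stat3) reached a 2-fold higher value in the mutant-labelled library and 0 a 2-fold lower value. Of all genes over the floor, 27.8% were that much higher and 23.3% that much lower. All 9 are longer than the median gene over the floor (3652 bases), with lengths from 3872 to 9527 bases. Among the 4195 genes over the floor in that range, 39.8% reached 2-fold in the higher direction and 7.94% in the lower, so the members' count of 3 (33.3%) is near that background. The median log2 ratio of the members was 0.77, against 0.74 for the genes in that range of lengths and 0.15 for all genes over the floor. With a 1.5-fold threshold 7 members were higher and 0 lower, beside 55.6% and 14% of the genes in that range and 38.6% and 31.9% of all genes over the floor. After length adjustment 1 member, Stat5b, was at least 2-fold higher and 0 lower, beside 18.1% and 21.3% of all genes. The length-adjusted median was 0.38 for the members and -0.07 for all genes over the floor. At 1.5-fold, length adjustment left Stat5b and Jak1 higher and Stat4 lower, beside 28.7% and 33.5% of all genes.

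**Figure D3:**
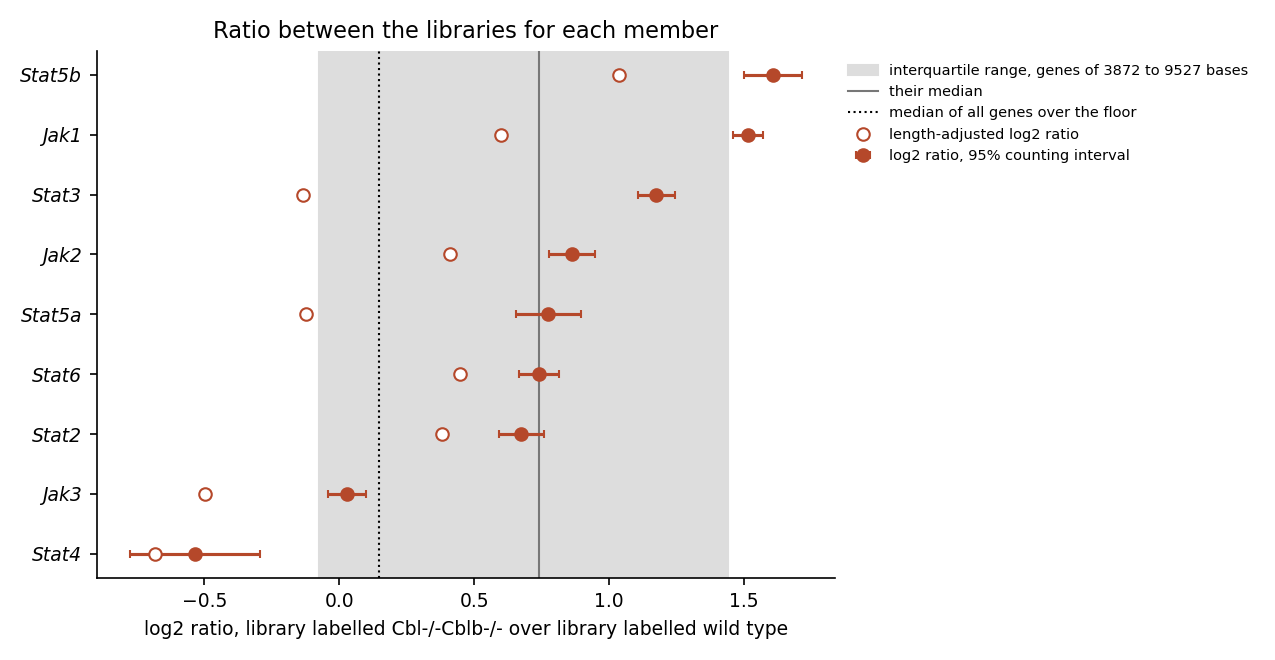
Log2 ratio of the mutant-labelled library over the wild-type-labelled library for each member (filled, with the 95% counting interval) and its length-adjusted value (open). The grey band is the interquartile range of the genes of 3872 to 9527 bases, and 6 of the filled points lie inside it, Stat5b and Jak1 to its right and Stat4 to its left.

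**Figure D4:**
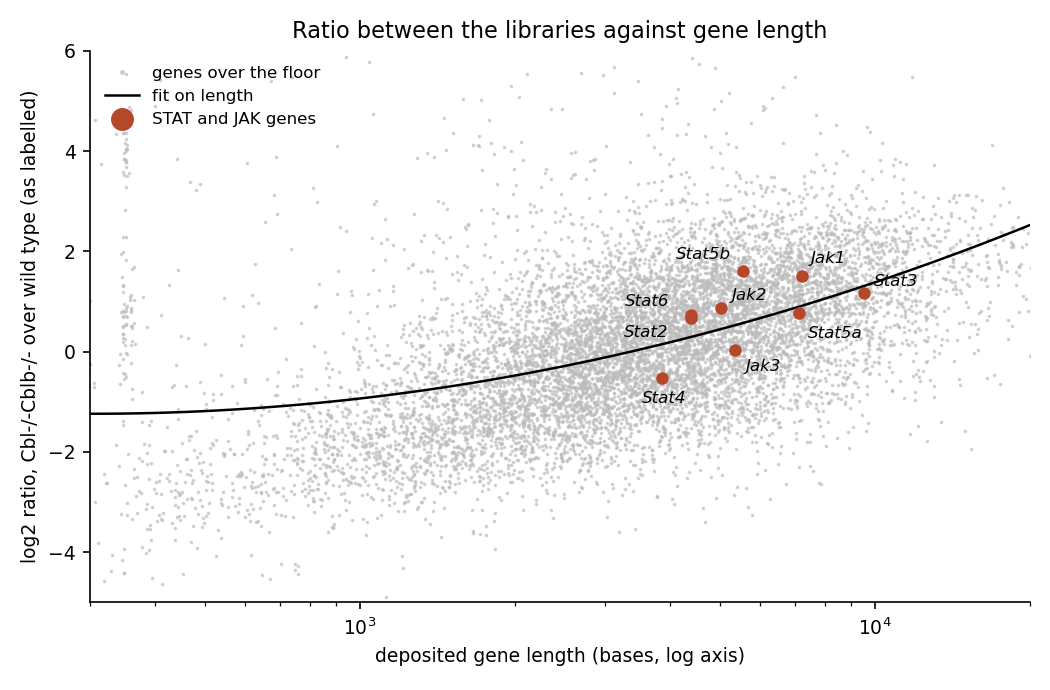
Log2 ratio between the libraries against deposited gene length (log axis) for genes over the floor (grey, 123 genes outside the axes not drawn), with the quadratic fit as a line and the 9 members in colour. Stat3 at 9527 bases and Stat5a lie close to the line, Stat5b 1.04 above it and Stat4 0.68 below it.

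The authors' deposited table compares 1 library with 1 library, and in it the members had unadjusted p-values from 0.209 for Stat5b to 0.981 for Jak3, and 0.944 was the lowest adjusted p among them. That table held 0 genes with an adjusted p under 0.05 and 511 with an unadjusted p under 0.05, of 19179 genes with a p-value.

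Cytokine receptor chains, which recruit the Janus kinases, had 19 of 32 genes over the floor. Of these, 6 were at least 2-fold higher in the mutant-labelled library and 2 at least 2-fold lower (27.8% and 23.3% of all genes), with a median log2 ratio of 0.53. The receptor chains for help by T cells were abundant. Il21r, the interleukin 21 receptor that signals through Jak1, Jak3 and Stat3, had 8896 normalized reads in the mutant-labelled library and 4651 in the wild-type-labelled library. Its log2 ratio was 0.94, or 1.18 after length adjustment. Il4ra, the interleukin 4 receptor chain that docks Stat6, had 7558 and 9713, a log2 ratio of -0.36 that turned to 0.16 when scaled to total reads. Il2rg, the common gamma chain to which Jak3 binds, had 1991 and 4768 normalized reads and was 2.39-fold lower (2.28 to 2.52) in the mutant-labelled library. On the log2 scale this was -1.26, and it was -0.74 when scaled to total reads and -0.93 after length adjustment, both short of 2-fold. Per kilobase, Il2rg was below Il4ra in the first library (834 against 1484) and near it in the second (1998 against 1907). Il6st, the shared chain of the interleukin 6 family that signals to Stat3, had 279 and 68.7 normalized reads, a log2 ratio of 2.01 that was 0.47 after length adjustment.

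Several receptor chains with large ratios had few reads in the wild-type-labelled library, and 4 of the 6 at least 2-fold higher were over the floor in the mutant-labelled library only. Il5ra, a receptor chain for interleukin 5, had 164 reads in the mutant-labelled library and 4 in the wild-type-labelled library, 20.03-fold higher (7.68 to 74.4). Il6ra had 438 and 15 reads and was 14.3-fold higher (8.55 to 25.7), and Lifr, the leukaemia inhibitory factor receptor, had 442 and 39 and was 5.54-fold higher (3.99 to 7.89). Il3ra, the interleukin 3 receptor chain, went the other way with 631 and 2469 reads and was 8.01-fold lower (7.34 to 8.75). Of 17 cytokine genes only Il12a, a subunit of interleukin 12, was over the floor, with 109 and 68.7 normalized reads. Il4 had 4 reads in each library and Il21 1 and 0, and both were named for their role and not by the size of their ratio.

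Inhibitors of the pathway had 16 of 18 genes over the floor, 7 of them at least 2-fold higher in the mutant-labelled library and 1 lower, beside 27.8% and 23.3% of all genes, with a median log2 ratio of 0.90. With length adjusted for, the counts were 5 and 1, beside 18.1% and 21.3% of all genes. The adjusted median was 0.68, against -0.07 for all genes. Ptprc, which encodes the phosphatase CD45, had 45013 and 8799 normalized reads (log2 ratio 2.35), but with 17763 bases it was at 0.04 after adjustment. Ptpn11, which encodes the phosphatase SHP-2, had 3578 and 858 normalized reads, 2.06 on the log2 scale and 1.09 adjusted. Socs4 had 2437 and 591 (2.04, adjusted 1.19) and Socs5 104 and 31.5 (1.70), both members of the suppressor of cytokine signalling family. Of the 7 higher genes, 1, Socs5, was over the floor in the mutant-labelled library only. The lower gene was Pias4, a SUMO ligase of the PIAS family, with 1153 and 2392 normalized reads and a log2 ratio of -1.05.

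Of 4 feedback inhibitors that STAT proteins induce, Cish and Socs2 were under the floor and Socs1 and Socs3 over it. Cish, a target of STAT5, had 18 reads in the mutant-labelled library and 3 in the wild-type-labelled library, a ratio of 2.93 whose interval (0.856 to 15.5) included 1. Socs2, another STAT5 target, had 87 and 50 reads and a ratio of 0.850 (0.594 to 1.23), and its interval also included 1. Socs1, which blocks Janus kinases directly, had 333 and 230 normalized reads and was 1.44-fold higher (1.21 to 1.74) in the mutant-labelled library. Socs3, a target of STAT3, had 154 and 80.1 normalized reads and was 1.92-fold higher (1.43 to 2.62) in the mutant-labelled library. Among 14 of 16 STAT-induced transcripts over the floor, 2 were at least 2-fold higher and 0 lower, beside 27.8% and 23.3% of all genes, and the median log2 ratio was 0.50. The 2 were the cyclin gene Ccnd2, with 1398 and 249 normalized reads (5.62-fold, 4.81 to 6.59), and Prdm1, which encodes Blimp-1, with 244 and 114 (2.13-fold, 1.67 to 2.75). The kinase gene Pim1 had 8107 and 4660 normalized reads and a log2 ratio of 0.80. With length adjusted for, 5 of the 14 were at least 2-fold higher and 0 lower, beside 18.1% and 21.3% of all genes. Their median was then 0.41, against -0.07 for all genes. Ccnd2 was at 1.88, Socs1 at 1.35, Junb at 1.13, Socs3 at 1.08 and Pim1 at 1.04, while Prdm1 was at 0.53. Prdm1 was thus short of 2-fold. The list was mixed in direction before adjustment. Log2 ratios were below 0 for Batf (-0.76), Bcl2l1 (-0.32), Bcl3 (-0.30), Pim2 (-0.26), Mcl1 (-0.09) and Fcer2a (-0.09), and above 0 for the rest of the 14.

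Transcripts of the interferon response, which Stat2 serves, had 7 of 13 genes over the floor, 4 of them at least 2-fold higher and 1 lower, beside 27.8% and 23.3% of all genes. All 4 were over the floor in the mutant-labelled library only, so their selection favoured that direction, and the count and the median log2 ratio of 1.23 describe the genes that passed and no more. Irf9, the DNA-binding partner of STAT2, had 2009 and 1225 normalized reads and a log2 ratio of 0.71, next to 0.68 for Stat2. Length adjustment put Irf9 at 0.18 and Stat2 at 0.38. The antiviral genes Ifit2, Mx1 and Oas3 had 324, 220 and 234 reads in the mutant-labelled library and 20, 20 and 32 in the wild-type-labelled library, with log2 ratios of 2.94, 2.39 and 1.81. Bst2, which encodes tetherin, had 332 and 984 normalized reads and a log2 ratio of -1.56, which was -0.51 after adjustment. Isg15 had 109 and 173 normalized reads and a log2 ratio of -0.66, which was 0.40 after adjustment. Of the 7 genes, only Irf9, Isg15 and Bst2 were over the floor in both libraries. The 6 genes under the floor had at most 111 reads in the mutant-labelled library.

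**Figure D5:**
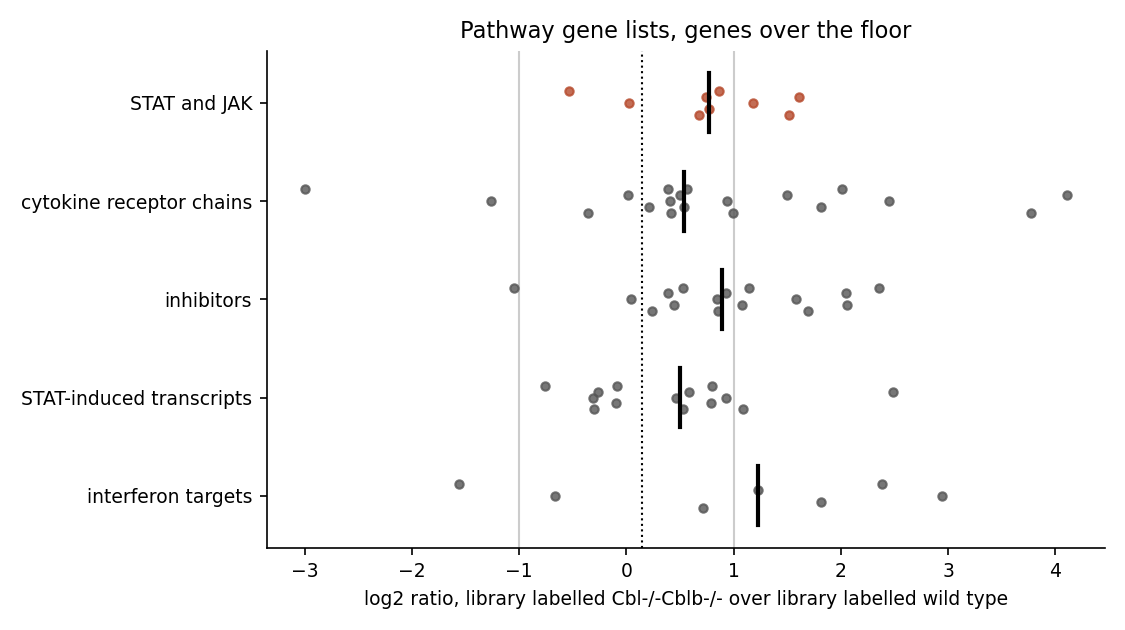
Log2 ratio of each gene over the floor in the STAT and Janus kinase set and in 4 other lists of the pathway, with a black bar at each median, grey lines at 2-fold and a dotted line at the median of all genes. The medians are 0.77 for the members, 0.53 for receptor chains, 0.90 for inhibitors, 0.50 for STAT-induced transcripts and 1.23 for interferon targets.

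Promoter sequences of the members and of these targets were searched for the letters that STAT complexes are known to bind. RefSeq windows on GRCm38.p6, from 250 bases before to 50 after a transcription start, were found for all 9 members (12 windows). TTCNNNGAA, the core of the site for STAT dimers, which reads the same on both strands, occurred in 0 of these 12 windows and in 8.30% of 32851 windows of all genes. It was in 2 of the 13 windows of the inhibitors (15.4%), those of Cish and Socs3. Both genes are also among the STAT-induced transcripts, which had it in 4 of 19 windows (21.1%). Receptor chains had it in 5 of 31 windows (16.1%) and interferon targets in 2 of 11 (18.2%). GAAANNGAAA, searched on both strands as the core of the site for the complex of STAT2 and IRF9, occurred in 3.44% of all windows, in 2 of the 12 windows of the members (Stat2 and Stat4) and in 6 of 11 windows of the interferon targets. The windows of Cish (chr9:107296409-107296708, plus strand) and Stat2 (chr10:128270248-128270547, plus strand) are shown because the first belongs to a STAT5 target with few reads here and the second to a member. Capitals mark the matches, which in Stat2 lie on the opposite strand:
Cish: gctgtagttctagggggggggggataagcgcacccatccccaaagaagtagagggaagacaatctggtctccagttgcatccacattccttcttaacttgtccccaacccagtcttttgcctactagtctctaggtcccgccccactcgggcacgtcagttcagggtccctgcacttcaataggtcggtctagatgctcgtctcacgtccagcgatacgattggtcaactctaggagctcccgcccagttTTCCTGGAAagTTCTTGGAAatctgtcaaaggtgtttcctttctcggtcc
Stat2: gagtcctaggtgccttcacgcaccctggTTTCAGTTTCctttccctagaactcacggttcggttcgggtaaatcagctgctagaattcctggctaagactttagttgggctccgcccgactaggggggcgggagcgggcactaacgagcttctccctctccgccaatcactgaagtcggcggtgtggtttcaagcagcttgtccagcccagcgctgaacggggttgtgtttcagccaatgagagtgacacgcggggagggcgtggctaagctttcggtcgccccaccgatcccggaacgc
These matches are letters in a window and do not show binding.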

How the data were processed

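Per the labels' protocols, RNA was purified with a spin-column kit, and TruSeq libraries gave paired 50-base reads on a HiSeq 2000. The mouse build GRCm38 and the tools DESeq2 1.4.5, featureCounts and TopHat2 2.0.10 are listed, without roles, per the submitters' processing notes. Per the file headers, the authors deposited a signal per gene, its reads relative to library size. Dividing each column by its lowest value above 0 gave whole reads for 100% of values in both libraries (tolerance 0.001 read), and the size factors were 1.43 (mutant-labelled) and 0.699 (wild-type-labelled). The authors' FPKM columns and base mean signal were not tested, and base mean only chose rows. The deposited log2 fold changes, standard error and test scores and p-values are the authors' own comparison of 2 libraries.

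Log2 ratios were log2 of normalized reads plus 1 in the mutant-labelled library over the same in the wild-type-labelled library. Higher or lower means at least 2-fold among genes with 100 normalized reads in the higher library. With 1 library per group no count model with a replicate-based estimate of spread could be fitted, so the recovered reads were given no test and no p-value was computed. Fold intervals are exact conditional 95% intervals, level intervals exact Poisson and ratio-of-ratios intervals based on the log odds ratio. They cover counting error only, as reads carry no molecular identifiers. The length fit was a linear fit of the log2 ratio on log2 deposited length and its square over 10443 genes. It was also run on simulated data with a built-in trend linear in log2 length. As the fit contains that form, the simulation cannot show whether the adjustment suits these libraries. Positions, exon overlaps and transcript words came from GENCODE M21 on GRCm38. Python 3.11.15, pandas 2.3.3, scipy 1.17.1 and biopython 1.88 were used. Members and lists were chosen with earlier results of these data known. Named genes were all members, Cbl and Cblb, up to 4 genes per list with the largest absolute ratio over the floor, and the partners Irf9, Il2rg, Il4ra, Il21r, Il6st, Cish and Socs2. Il4, Il21, Pias4, Socs1, Isg15, Junb, the STAT-induced transcripts that were lower and single cell type markers were named besides.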

Additional observations from a re-analysis of the deposited data

How the results depend on the processing

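Depth limits Stat4, Cish, Socs2 and the receptor chains with few reads, and the scaling limits every ratio. Scaling to total reads shifted the median of all genes by 0.55 on the log2 scale, leaving immunoglobulin genes out of the totals by 0.54 and centring by -0.15. The median of the members was 1.29, 1.28 and 0.63 under these scalings and 0.38 after length adjustment. The count of members at least 2-fold higher was 7 under either scaling to totals and with a 1.5-fold threshold, and 1 after length adjustment. Stat3 turned from 1.18 to -0.13 after length adjustment. The sign of Jak3 and Stat5a also changed under some settings, and that of Stat2, Stat4, Stat5b, Stat6, Jak1 and Jak2 under none of those run. For receptor chains, the median was 1.05 and 1.04 under the scalings to totals, 11 genes were higher under both and 1 was lower, 10 were higher without a floor, and 1 was lower after length adjustment. For inhibitors, the median was 1.41 and 1.402 with 11 higher and 0 lower under both scalings to totals, and 0.68 after length adjustment. Centring on the median left 5 inhibitors higher. For STAT-induced transcripts, the median was 1.01 under both scalings, with 7 higher under both, 1 when centred and 5 after length adjustment. For interferon targets, 8 were higher with a floor of 20 and 9 without a floor, and 0 were lower after length adjustment. A pseudocount of 10 changed no count of members. The cause of these differences was not tested beyond the construction of each setting. The summing of Stat5a and Stat5b was chosen after seeing the data. No paired analysis was possible because each group held 1 library, and no replicate could be left out.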
